A study of Glycine max with 102 samples.

Results

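The soybean nested association mapping population, soyNAM, was bred from parents of which 41 were sequenced here, and a minority of those parents carried very high transcript levels across the rhg1 locus. Parents were chosen by the measured FPKM of Glyma.18G022400, the amino acid transporter gene of rhg1; FPKM counts fragments relative to transcript length and to the mapped fragments of the library. Libraries at 20 FPKM or more were called high and libraries below 10 FPKM were called normal. The high group held 7 of the 41 soyNAM libraries, the normal group held 33, and 1 library fell between the thresholds and was left out of both. The series has 102 libraries in all, and the other 61 are milestone cultivars. All 102 were RNA from leaves of 18-day-old plants at stage V2, with 1 library per accession. Accessions in both groups were otherwise untreated and unmodified as far as the labels say, and differ in their whole genomes as well as at rhg1.

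The high libraries were NAM03, NAM05, NAM10, NAM12, NAM13, NAM15 and NAM27, and the library between was NAM11. By the public family numbers of the population, which are not part of the labels, 6 of the 7 high libraries were among the 18 elite parents. The other one was among the 15 LG parents (lines of diverse ancestry), and 0 of the 8 PI parents (plant introductions) were high. The normal group therefore held 11 elite, 14 LG and 8 PI parents, so rhg1 level and line class were partly confounded. Fits with class as a covariate are given beside the calls they end.

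The locus rhg1 is a main source of resistance to the soybean cyst nematode, a root parasite. Resistant types carry a chromosome 18 segment repeated in tandem, and the repeated genes include an amino acid transporter, an alpha-SNAP and a wound-inducible WI12-like gene. Alpha-SNAP proteins recruit the ATPase NSF to take apart SNARE complexes after vesicle fusion, and resistant soybeans are known to pair unusual alpha-SNAP proteins with a variant NSF. In published maps the repeated segment also takes in a fragment of the gene just before the transporter. Copy number was not measured in these data. No sequence of these genes was used here.

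Leaf, nodule and seed markers were read first. The summed FPKM of 6 Rubisco small subunit and Rubisco activase genes was 5623 to 35160 in high libraries (median 34120) and 4423 to 40930 in normal libraries (median 31310). All 6 leaf markers passed 1 FPKM in some library. Summed leghemoglobin, the oxygen carrier of root nodules, stayed at or below 0.583 FPKM in high and 3.22 FPKM in normal libraries over 4 genes. Summed seed storage proteins stayed at or below 0.471 FPKM in high and 1.09 FPKM in normal libraries over 5 genes, with 2 of them at 0 everywhere. Deposited FPKM summed to 519780 to 777200 in high and 459820 to 819900 in normal libraries. High libraries had 27638 to 28653 genes at 1 FPKM or more, against 27370 to 29385 in normal libraries. In 7 of the 41 soyNAM libraries the dawn-peaking clock gene LHY2b (Glyma.03G261800) was below 60 FPKM: NAM10 of the high group, NAM11 between the thresholds, and NAM06, NAM29, NAM31, NAM48 and Parent of the normal group. The values of the called genes are also given without those libraries.

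The transporter chose the groups, so its values are a description. It stood at 67.4 FPKM in NAM03, 60.7 in NAM05, 75.1 in NAM10, 89.9 in NAM12, 80.9 in NAM13, 77.2 in NAM15 and 66.2 in NAM27. In the 33 normal libraries it ranged between 3.23 and 7.24 FPKM with a median of 4.82. The means were 73.9 ± 9.92 FPKM in the high group (SD, n = 7) and 4.84 ± 0.786 FPKM in the normal group (SD, n = 33). The high libraries were 12.6 to 18.6 times the normal median. The coefficients of variation were 13.4% in high and 16.2% in normal libraries. The lowest high library was NAM05 at 60.7 FPKM, the library between was NAM11 at 11.6 FPKM, and the highest normal library was NAM31 at 7.24 FPKM. No soyNAM library lay between NAM11 and NAM05.

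The alpha-SNAP gene Glyma.18G022500, the rhg1 gene that acts in vesicle trafficking, separated the same libraries. It stood at 214 FPKM in NAM03, 228 in NAM05, 402 in NAM10, 273 in NAM12, 258 in NAM13, 225 in NAM15 and 216 in NAM27. In normal libraries it ranged between 18.9 and 47.2 FPKM with a median of 25.5. The groups did not overlap, and NAM11 lay between them at 129 FPKM. The difference was 3.20 on the log2(FPKM + 1) scale (SE 0.121), against 3.68 (SE 0.0814) for the transporter. As neighbours in the same tandem segment the 4 repeat genes are given no p. The fit and its adjustment still held the 3 abundant ones.

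WI12 (Glyma.18G022700), named for its likeness to wound-inducible proteins, was the most variable of the 3 abundant repeat genes among the high libraries. It stood at 179 FPKM in NAM03 and 201 in NAM10, while the other 5 high libraries lay at 105.4 in NAM05, 102 in NAM12, 102 in NAM13, 89.8 in NAM15 and 103 in NAM27. Normal libraries ranged between 5.60 and 45.2 FPKM with a median of 10.9, and the top of that range was NAM31, followed by NAM42 at 15.98 FPKM. The groups did not overlap, with a log2 difference of 3.34 (SE 0.199). NAM11, at 44.7 FPKM, was level with NAM31. The coefficient of variation was 35.2% in high and 55.2% in normal libraries for WI12, against 25.7% in high and 23.1% in normal libraries for alpha-SNAP.

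The remaining gene in the segment, Glyma.18G022600, was barely detected and split the high group. It stood at 0.982 FPKM in NAM03, 0.839 in NAM05, 1.06 in NAM12 and 0.998 in NAM27. The other high libraries had 0.0893 FPKM in NAM10, 0.0239 in NAM13 and 0.115 in NAM15. Normal libraries lay between 0 and 0.146 FPKM, so 4 of the 7 high libraries were above every normal library and the other 3 lay within the normal range. NAM11 was at 0.753 FPKM. The gene did not reach the mean of 1 FPKM required for testing, and at such levels a value may rest on few reads.

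**Figure D1:**
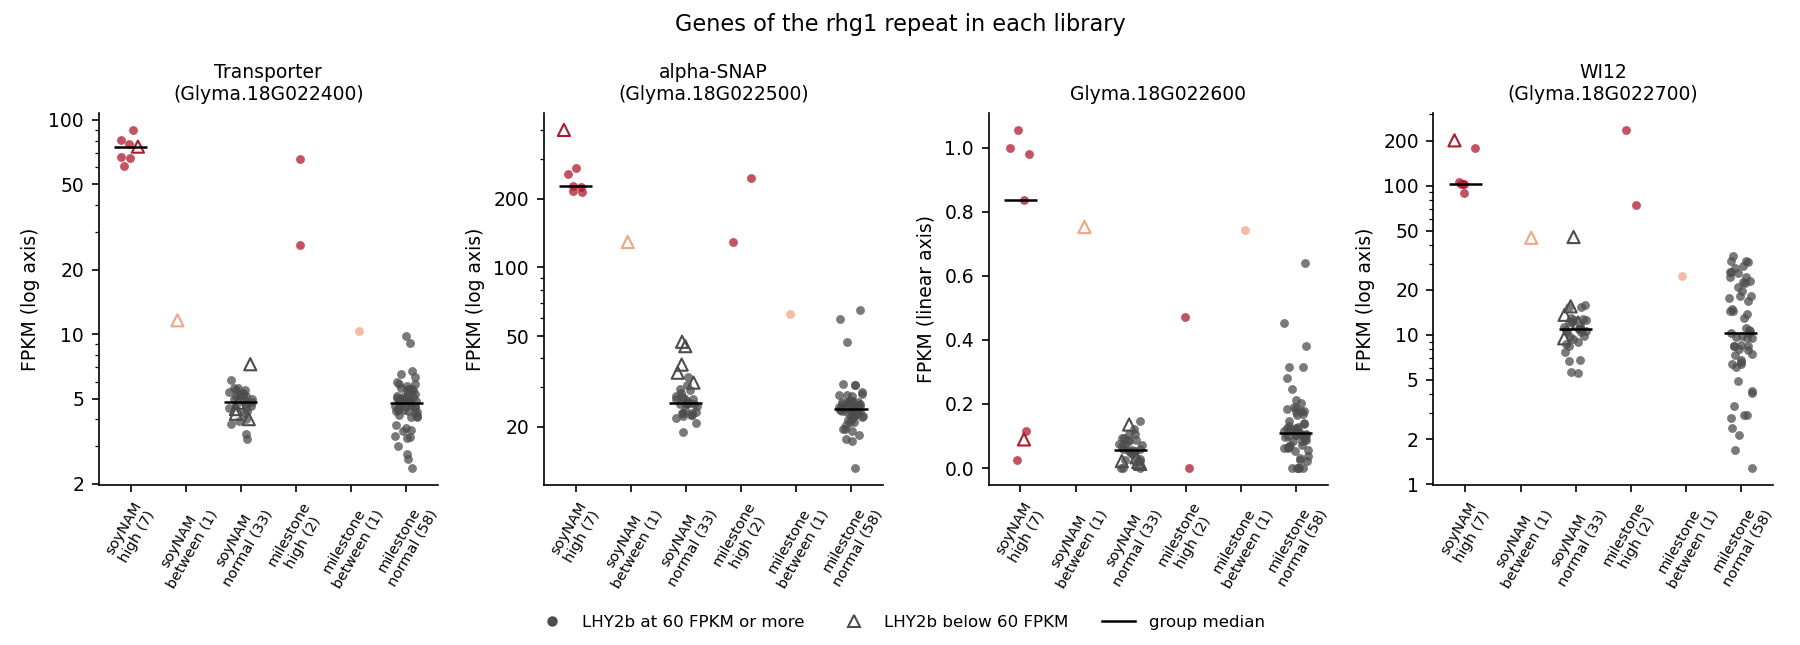
FPKM of the 4 genes of the rhg1 repeat in each library (points), by collection and transporter level, with log axes except for Glyma.18G022600; black lines are medians and open triangles are libraries with LHY2b below 60 FPKM. High soyNAM libraries lie above all 33 normal ones for the transporter, alpha-SNAP and WI12, while Glyma.18G022600 splits them into 4 libraries at 0.839 to 1.06 FPKM and 3 libraries within the normal range.

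The ratio of alpha-SNAP to transporter transcript had a lower median in high libraries, with overlapping ranges. FPKM is per length, so the ratio compares levels between genes. Alpha-SNAP had 2.91 to 5.35 times the transporter's FPKM in high libraries (median 3.19) and 4.01 to 9.86 times in normal libraries (median 5.30). The ratio is built on the gene that chose the groups and was given no test. It also moved with LHY2b: the 7 soyNAM libraries with low LHY2b had ratios of 5.35 to 11.1 (median 7.72) and the other 34 had 2.91 to 7.74 (median 4.96). Among normal libraries alone, the 5 with low LHY2b had a median ratio of 7.72 and the other 28 a median of 5.20. The highest ratio of the high group, 5.35, belonged to NAM10, and the highest of the 41, 11.1, to NAM11. The part of LHY2b in the ratio was not tested.

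WI12 had 1.14 to 2.67 times the transporter's FPKM in high libraries (median 1.55) and 1.01 to 6.25 times in normal libraries (median 2.36). Within the high group the repeat genes did not keep one order. Over the 7 high libraries Spearman's rho was 0.50 between transporter and alpha-SNAP and -0.57 between transporter and WI12. Over the 33 normal libraries the same coefficients were 0.31 and -0.15. These are descriptions over libraries that share the FPKM scaling.

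**Figure D2:**
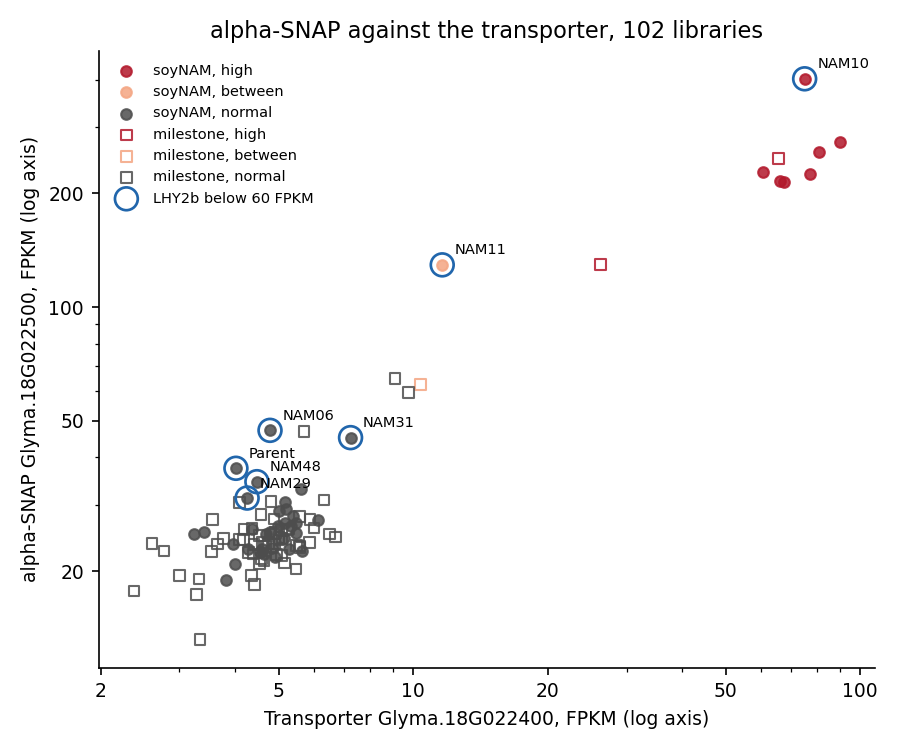
FPKM of alpha-SNAP (vertical, log axis) against the transporter (horizontal, log axis) in each of the 102 libraries, with soyNAM as filled circles, milestone cultivars as open squares, and rings for LHY2b below 60 FPKM. The 7 high soyNAM libraries lie at 60.7 to 89.9 FPKM of the transporter, NAM11 lies between the groups, and the ringed normal libraries lie above most of their group in alpha-SNAP.

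The milestone cultivars, which the split of the soyNAM parents did not use, held 2 libraries past the same threshold, 1 between and 58 below. Library 61 had 65.6 FPKM of the transporter, 248 of alpha-SNAP and 236 of WI12, levels within or above those of the high soyNAM parents. Library 17 had 26.2 FPKM of the transporter, 130 of alpha-SNAP and 73.9 of WI12, below every high soyNAM parent in all 3 genes. Library 53, between the thresholds, had 10.4 FPKM of the transporter, 62.5 of alpha-SNAP and 24.7 of WI12. The 58 normal cultivars ranged between 2.37 and 9.77 FPKM for the transporter, 13.2 and 64.8 for alpha-SNAP and 1.29 and 33.8 for WI12. Glyma.18G022600 was listed at 0 in library 61 and stood at 0.473 FPKM in library 17 and 0.742 in library 53. The 58 normal cultivars ranged between 0 and 0.641 FPKM for this gene, with 1 of them above library 17. Normal libraries 48 and 59 were near library 53, with 9.10 and 9.77 FPKM of the transporter and 64.8 and 59.4 of alpha-SNAP. Their WI12 was 24.4 and 8.42 FPKM. With 2 high libraries no comparison was tested in this collection.

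Outside the repeat, meaning outside its 4 listed genes, few genes differed between the groups. Of 29055 genes tested there, 3 were higher in high libraries (0.0103%) and 1 was lower (0.00344%) at an adjusted p below 0.05 (limma, Benjamini-Hochberg), together 0.0138% of those tested. The adjustment ranked them together with the 3 abundant repeat genes, which lowers their adjusted p. The transporter, which chose the groups, is among those 3. Ranked without the 3, Glyma.09G015800 (limma adjusted p = 0.0413) would lose its call, while the other called genes would stay below 0.05. At an unadjusted limma p below 0.05 there were 2029 genes (6.98%), of which 1209 were higher (4.16%) and 820 lower (2.82%). The median difference over all tested genes was -0.003 on the log2 scale, and the median size of a difference was 0.10. The 3 abundant repeat genes were the only ones whose groups did not overlap, against 0 of the 29055 outside (0%). A difference of at least 1 on the log2 scale was reached by 79 genes upward and 28 downward, of which 1, downward, passed the test. Leaving out single libraries moved the 4 calls to 1 without NAM10 or NAM15, 2 without NAM13, 7 without NAM03, NAM09 or NAM17, 8 without NAM02 and 15 without NAM27. Any other single library left out gave 3 to 5 calls.

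Without the libraries of low LHY2b, 6 high libraries against 28 normal ones, 1 gene of 28362 was called (0.00353%) and 2509 had an unadjusted limma p below 0.05 (8.85%). With line class as a covariate 0 of 29055 were called by limma (0%), and 604 had an unadjusted p below 0.05 (2.08%). Among elite parents alone, 6 high against 11 normal, limma called 1 of 29056 (0.00344%), which was none of the 4, and 462 had an unadjusted p below 0.05 (1.59%).

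**Figure D3:**
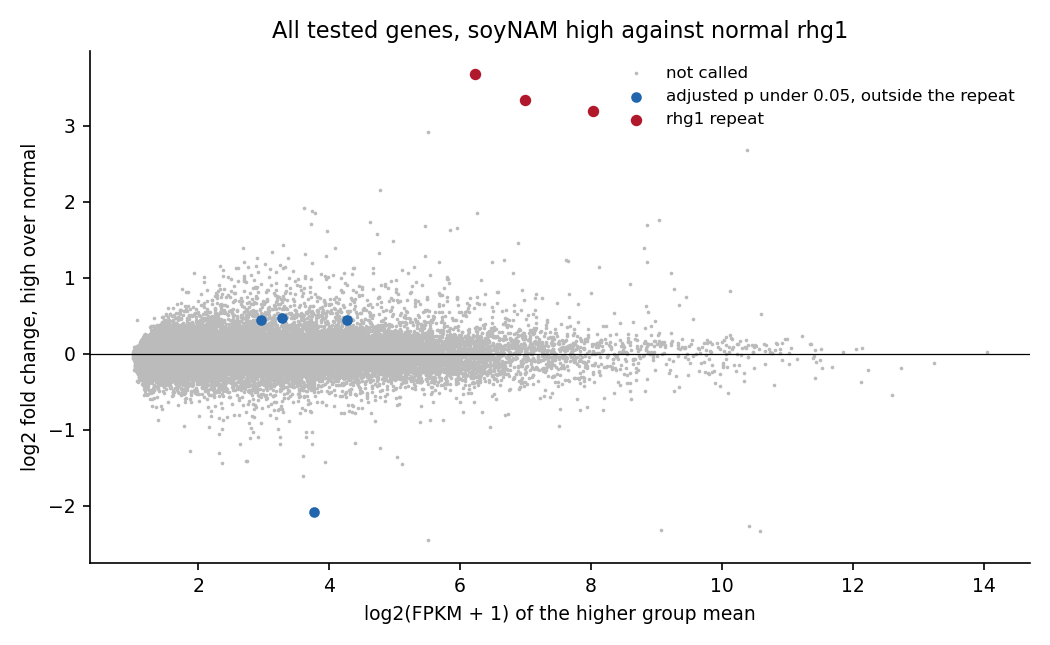
Difference of each tested gene between high and normal soyNAM libraries (vertical, log2 of FPKM + 1, positive where higher in high libraries) against the log2(FPKM + 1) of the higher group mean (horizontal). The 3 abundant repeat genes (red) lie at 3.20 to 3.68 and the 4 called genes outside (blue) lie at 0.44 to 0.48 and at -2.08.

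The gene with the smallest p outside the 4 listed repeat genes was Glyma.18G022300, whose ID comes directly before the transporter. In published maps a fragment of the gene at this place lies in the repeated segment, so it is not wholly outside. The part of repeated copies in its FPKM was not tested. Glyma.18G022300 stood at 7.68 FPKM in NAM03, 7.88 in NAM05, 9.19 in NAM10, 10.7 in NAM12, 9.18 in NAM13, 8.83 in NAM15 and 7.23 in NAM27. Normal libraries ranged between 4.15 and 8.82 FPKM with a median of 5.78. All 7 high libraries were above the normal median and 4 were above every normal library, with NAM06 the highest of the normal group. The difference was 0.48 (SE 0.0779, 95% interval 0.32 to 0.63; limma adjusted p = 0.00228). It was 0.48 without the low-LHY2b libraries (limma adjusted p = 5.6e-04). With class as a covariate it was 0.40 (limma adjusted p = 0.0891), and with class as a covariate and without the low-LHY2b libraries it was 0.43 (limma adjusted p = 0.0135). All of these adjusted p were ranked with the 3 abundant repeat genes included. Ranked without them, the call with class as a covariate and without the low-LHY2b libraries would be lost. The calls without class as a covariate would stay. NAM11 was at 6.87 FPKM. In the milestone cultivars library 17 had 8.09 FPKM, with 2 of the 58 normal cultivars above it, and library 61 had 6.91 FPKM, with 21 of the 58 above it.

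None of the other close neighbours was called. Of the 10 IDs on each side of the repeat 8 passed the filter, 1 was called, and their median difference was -0.02. Glyma.18G023100 on the far side differed by 0.29 (unadjusted limma p = 0.0266, adjusted p = 0.654). Over 100 IDs on each side, 19 of 113 tested genes had an unadjusted limma p below 0.05 (16.8%), 9 of them higher and 10 lower. On the rest of chromosome 18 that share was 86 of 1315 (6.54%), near the 6.98% of all genes. The larger share lay mostly after the repeat, where 12 of 54 tested genes had such a p at 11 to 100 IDs (22.2%), against 5 of 51 before it (9.80%). Neighbouring genes are not independent, and the shares were given no test.

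**Figure D4:**
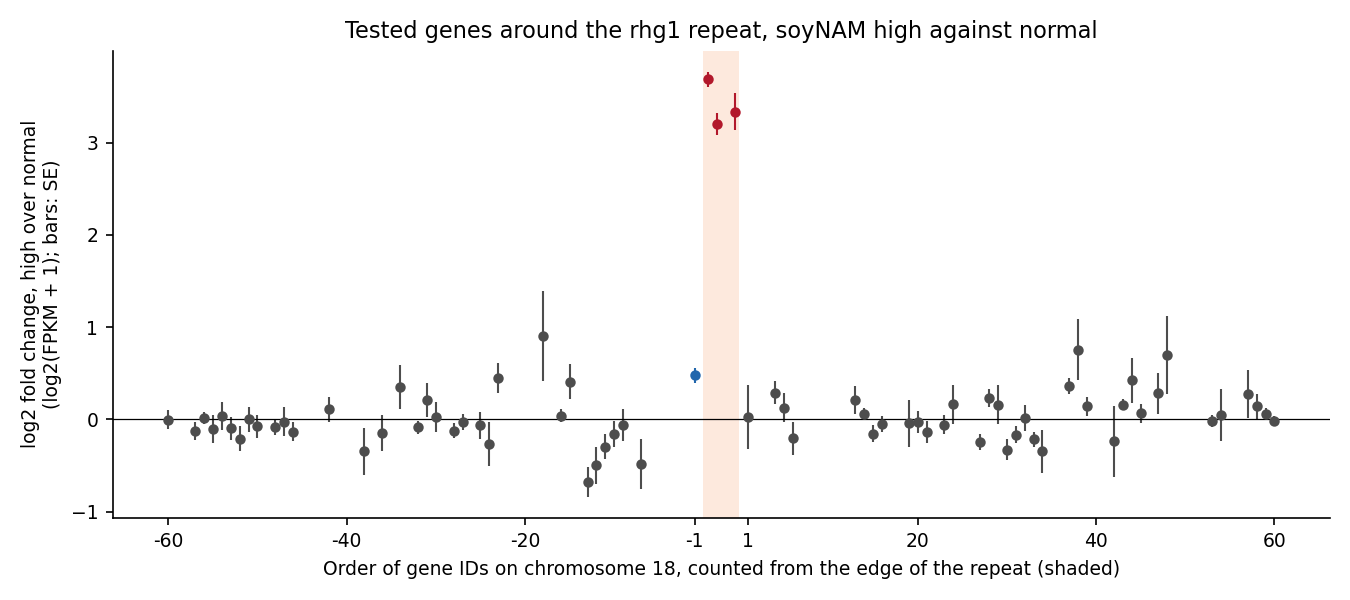
Difference between high and normal soyNAM libraries (vertical, log2 of FPKM + 1, bars are SE) for tested genes in the order of their IDs on chromosome 18 (horizontal, counted from the edge of the shaded repeat). The repeat genes lie at 3.20 to 3.68, Glyma.18G022300 (blue) lies at 0.48 directly before them, and the genes beyond scatter around 0 in both directions.

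The other called genes lie on chromosomes 20 and 9, carry no name in the sources used here, and each lost its call when some single libraries were left out. Glyma.20G106400 stood at 4.47, 7.38, 8.17, 6.30, 7.35, 8.48 and 5.36 FPKM in the high libraries NAM03, NAM05, NAM10, NAM12, NAM13, NAM15 and NAM27, against 3.27 to 5.88 FPKM in normal libraries (median 4.74). In 5 of the 7 it was above every normal library, and NAM03 lay below the normal median. The difference was 0.44 (SE 0.0818; limma adjusted p = 0.0169). It was 0.39 without the low-LHY2b libraries (limma adjusted p = 0.243) and 0.34 with class as a covariate (limma adjusted p = 0.462). Leaving out NAM05, NAM10, NAM13 or NAM15 alone put its limma adjusted p at 0.067, 0.199, 0.0909 and 0.153 in that order. NAM11 was at 4.32 FPKM, below the normal median. In milestone library 61 the gene stood at 8.02 FPKM, with 1 of 58 normal cultivars above it, and in library 17 at 3.85 FPKM, with 50 of 58 above it.

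Glyma.09G015800 ranged between 15.01 FPKM in NAM27 and 23.4 FPKM in NAM10 in high libraries (median 17.2), against 9.99 to 17.7 FPKM in normal libraries (median 13.1). All 7 high libraries were above the normal median and 3 were above every normal library. The difference was 0.44 (SE 0.0871; limma adjusted p = 0.0413). It was 0.35 without the low-LHY2b libraries (limma adjusted p = 0.382) and 0.38 with class as a covariate (limma adjusted p = 0.633). The gene's call in the main fit would be lost if ranked without the 3 abundant repeat genes. The gene was the least stable of the 4, with the call lost in 18 of 40 fits that each left out 1 library. These were NAM03, NAM05, NAM10, NAM12, NAM13 and NAM15 of the high group (limma adjusted p between 0.0606 and 0.311) and NAM14, NAM31, NAM32, NAM34, NAM38, NAM40, NAM41, NAM42, NAM46, NAM48, NAM54 and NAM64 of the normal group (between 0.0508 and 0.0604). NAM11 was at 11.7 FPKM, below the normal median. Milestone libraries 17 and 61 had 10.6 and 10.7 FPKM, each with 5 of 58 normal cultivars above it.

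Glyma.20G055900, the 1 gene that fell, was divided within the high group. It was listed at 0 in NAM05, NAM13 and NAM15 and stood at 0.607 FPKM in NAM10. The other 3 high libraries had 8.63 FPKM in NAM03, 9.57 in NAM12 and 10.6 in NAM27. Normal libraries had a median of 12.8 FPKM and reached 19.4 FPKM, with 1 of 33 below 1 FPKM, NAM02 at 0.582. The difference was -2.08 (SE 0.395; limma adjusted p = 0.0233). It was -1.85 without the low-LHY2b libraries (limma adjusted p = 0.374) and -1.84 with class as a covariate (limma adjusted p = 0.462). Its fitted size depends on the pseudocount and was -5.02 with 0.01 FPKM added in place of 1. Leaving out NAM05, NAM10, NAM13 or NAM15 alone ended the call, at limma adjusted p of 0.153, 0.205, 0.154 and 0.167 in that order. NAM11 was at 17.0 FPKM, above the normal median. In the milestone cultivars the gene was listed at 0 in library 61 and at 14.1 FPKM in library 17, with 0 of 58 normal cultivars below 1 FPKM.

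The machinery with which rhg1 alpha-SNAP works includes other SNAP proteins and NSF. Of the 6 other SNAP and NSF genes listed, 5 passed the filter and 0 were called, a count that the 0.0138% of calls over all genes would also give, with a median difference of -0.16 against -0.003 over all genes. NSF07 (Glyma.07G195900), the NSF gene whose variant is known to accompany rhg1 resistance, stood at 4.55 FPKM in NAM03, 5.46 in NAM05, 5.94 in NAM10, 4.65 in NAM12, 4.98 in NAM13, 4.88 in NAM15 and 5.46 in NAM27. Normal libraries ranged between 4.43 and 11.9 FPKM with a median of 6.61, so all 7 high libraries lay below the normal median within the normal range. The difference was -0.32 (95% interval -0.53 to -0.12; unadjusted limma p = 0.00264, adjusted p = 0.556). NAM11 was at 8.58 FPKM. The 3 highest normal libraries were NAM31 and NAM06, both with low LHY2b, and NAM23, and the difference was -0.29 without the low-LHY2b libraries.

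The gene with the ID beside NSF07, Glyma.07G195800, had a larger fitted difference than NSF07 itself and was chosen after its values were seen. It stood at 2.88 FPKM in NAM03, 0.901 in NAM05, 0.647 in NAM10, 1.10 in NAM12, 1.65 in NAM13, 0.837 in NAM15 and 2.96 in NAM27. Normal libraries ranged between 0.994 and 8.64 FPKM with a median of 3.94, so all 7 high libraries were below the normal median and 3 were below every normal library. The difference was -0.99 (SE 0.209; limma adjusted p = 0.0606), which missed the threshold. Leaving out NAM03 or NAM27 of the high group, or NAM17, NAM22 or NAM24 of the normal group, put the limma adjusted p between 0.0196 and 0.0499, while leaving out NAM05, NAM10, NAM12 or NAM15 put it between 0.273 and 0.351. The difference was -0.89 without the low-LHY2b libraries (limma adjusted p = 0.4) and -0.97 with class as a covariate (limma adjusted p = 0.534). In milestone libraries 17 and 61 the gene stood at 0.847 and 1.19 FPKM, both above the median of 0.542 FPKM of the 58 normal cultivars, which is the other direction. NAM11 was at 0.892 FPKM, also below every normal library. Around NSF07, 5 of 14 tested genes within 10 IDs on each side had an unadjusted limma p below 0.05 (35.7%), 4 of them lower, against 6.98% of all genes outside the repeat. This window includes the gene picked after its values were seen, and its share was given no test. Around the other SNAP and NSF genes and Rhg4 the counts were between 0 of 6 and 2 of 10 tested genes.

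NSF13 (Glyma.13G180100), the second NSF gene, had a median of 5.23 FPKM in high and 5.68 FPKM in normal libraries, with a difference of -0.16 (limma adjusted p = 0.817). SNAP11 (Glyma.11G234500), an alpha-SNAP gene on chromosome 11 whose loss of function has been tied to nematode resistance, had medians of 12.3 FPKM in high and 13.1 FPKM in normal libraries. Its difference was -0.16 (95% interval -0.46 to 0.13; limma adjusted p = 0.87), and the sign turned among elite parents alone. The gene with the ID beside SNAP11, also picked after its values were seen, differed by 0.54 (SE 0.11; limma adjusted p = 0.0515) and was above the normal median in all 7 high libraries. Without the low-LHY2b libraries that gene differed by 0.45 (limma adjusted p = 0.374). In high libraries SNAP11 was 6.94 FPKM in NAM15 and 6.90 FPKM in NAM27, and 12.1 to 15.7 FPKM in the other 5. SNAP14 (Glyma.14G054900) differed by 0.22 and SNAP09 (Glyma.09G279400) by -0.07, neither past the threshold and both of unstable sign, and SNAP02 (Glyma.02G260400) did not exceed 0.177 FPKM in any high library or 0.881 FPKM in any normal library. Whether reads of these related genes were shared between them is not given in the sources used here. In 7 high libraries the alpha-SNAP of rhg1, at 214 FPKM or more, was well above SNAP11 on the same per-length scale, and in normal libraries the medians were 25.5 FPKM for rhg1 alpha-SNAP and 13.1 FPKM for SNAP11.

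Rhg4 (Glyma.08G108900), the serine hydroxymethyltransferase gene of the other major nematode resistance locus, ranged between 26.9 and 136 FPKM in high libraries (median 106) and between 21.5 and 150 FPKM in normal libraries (median 125). The difference was -0.35 (95% interval -0.78 to 0.08; limma adjusted p = 0.802). Its lowest value in each group came from a low-LHY2b library, NAM10 in the high group and Parent in the normal group. Without the low-LHY2b libraries the difference was -0.14.

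Of 11 clock and flowering genes 11 were tested and 0 called, a count that the 0.0138% of calls over all genes would also give. FT5a (Glyma.16G044100), a florigen that promotes flowering, had a median of 5.38 FPKM in high and 1.66 FPKM in normal libraries, with overlapping ranges of 0.352 to 5.44 FPKM in high and 0.0448 to 7.05 FPKM in normal libraries. Its difference was 0.78 (unadjusted limma p = 0.0193, adjusted p = 0.634), and it was 0.45 with class as a covariate. LHY2b itself had a median of 257 FPKM in high and 205 FPKM in normal libraries, a higher median beside a fitted difference of -0.32. NAM10 stood at 0.239 FPKM, and without it the difference was 0.78, with the 5 low-LHY2b libraries of the normal group kept. Without the low-LHY2b libraries of both groups it was 0.29 (limma adjusted p = 0.581). The vegetative storage protein genes VspA (Glyma.07G014500) and VspB (Glyma.08G200100), which hold leaf nitrogen, differed by -0.13 and -0.58 with limma adjusted p of 0.96 and 0.887. Without the low-LHY2b libraries the differences were -0.51 and -0.95, with limma adjusted p of 0.669 and 0.605. VspB was at 62.1 to 182 FPKM in high libraries, all 7 below the normal median of 204 FPKM, within a normal range of 13.5 to 2270 FPKM.

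**Figure D5:**
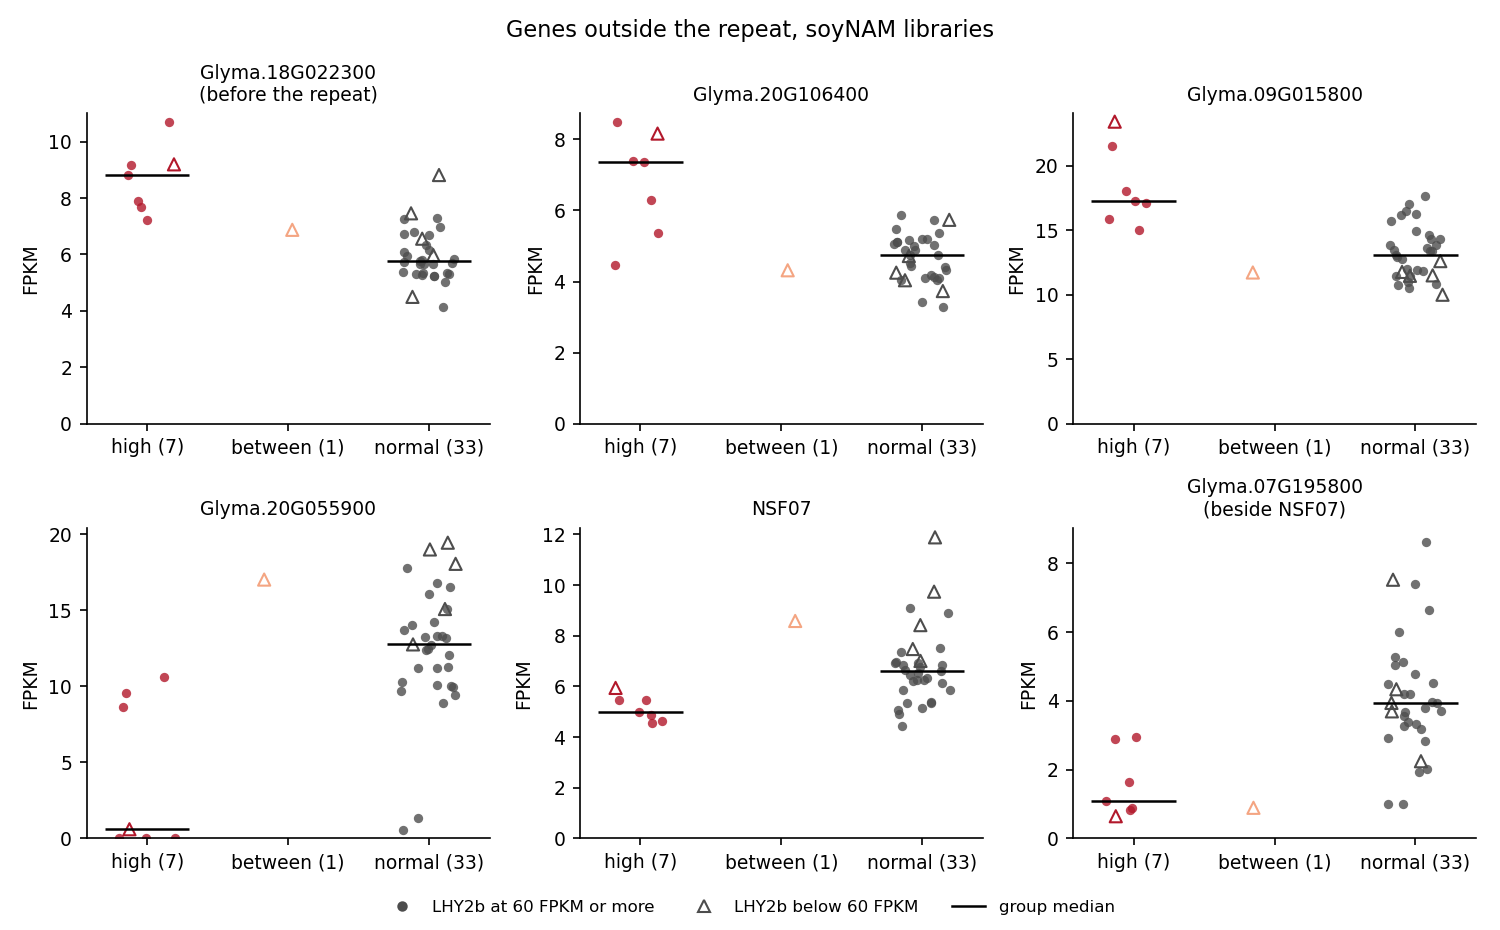
FPKM (vertical) in each soyNAM library (points) of the 4 called genes outside the repeat, NSF07 and Glyma.07G195800, by transporter level, with black lines for medians and open triangles for LHY2b below 60 FPKM. Glyma.18G022300, Glyma.20G106400 and Glyma.09G015800 lie higher in the high group with some overlap, Glyma.20G055900 is near 0 in 4 of 7 high libraries, and NSF07 and Glyma.07G195800 lie below the normal median in all 7.

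The genes whose levels followed the transporter most closely over the 41 soyNAM libraries, outside the repeat, had Spearman coefficients of 0.55 to 0.59. Glyma.18G022300 was the fourth of them, at 0.55. These coefficients are across libraries that fall into separate groups and are given as a description. In bulk leaf RNA a change in the number of cells that express a gene cannot be told apart from a change in RNA per cell.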

How the data were processed

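RNA was isolated from leaves with TRIzol and made into stranded libraries, per the labels' protocols. Trimmomatic 0.32, STAR 2.4.1c and Cufflinks 2.2.1 are named in the submitters' processing notes, and the deposited table holds FPKM per gene computed by the authors for 56044 Wm82.a2.v1 gene IDs. How Cufflinks treated strand and shared reads is not given in the sources used here. FPKM keeps no read depth, so the depth per library is unknown and no counting interval is given. Fragments of repeated copies that map to one reference copy add to its FPKM.

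Here 1 FPKM was added to each value before taking log2, and the R 4.3.3 package limma (version 3.58.1) fitted all genes whose mean over the compared libraries reached 1 FPKM, 29058 in all. Files were read with the R package data.table, version 1.17.8. Tests were moderated with a mean trend and 2-sided. Benjamini-Hochberg adjustment covered the whole fit, and calls needed an adjusted p below 0.05. A fold change on this scale understates the change of low genes. With 1 library per accession, p measures the spread between accessions. The function was tested on simulated data: with 7 against 33 libraries and 29058 genes, it recovered 58% of 100 genes given a 1.5-fold change and 79% of 100 given a 2-fold change, and made 7 false calls. The simulated noise was independent between genes, and far more genes were changed than the real fit called. That loosens the adjusted threshold, so these shares overstate recovery in the real fit.

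The groups, gene lists and tests were chosen with earlier results of these data known. Named genes were all list genes, called genes outside the repeat (up to 12 in each direction, with at most 2 unlisted IDs in each), and those most alike to the transporter by Spearman's rho. Symbols come from published assignments, since the available reference table matched 0 of these IDs. Line classes come from public family numbers of soyNAM, not the labels. Alternatives were other pseudocounts, filters, scalings, covariates, library sets, thresholds and tests.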

Additional observations from a re-analysis of the deposited data

Results flagged for a closer look

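A gap test (Dixon, at its 95% critical value of 0.568 for 7 libraries) was applied to 23 measures within the high group, and 7 of them had a library that stood apart. Chance alone would put about 1 group in 20 past such a value, and these 7 share 1 library. All 7 were values of NAM10, the high library with low LHY2b. NAM10 had 402 FPKM of alpha-SNAP, against 273 FPKM in the next high library, and 5.35 times as much alpha-SNAP as transporter, against 3.76 in the next. It had 26.9 FPKM of Rhg4, against 103 FPKM or more in the other 6 high libraries. LHY2b stood at 0.239 FPKM there, against 219 FPKM or more in the others, and VspA at 3823 FPKM, against 1457 FPKM or less. Its FPKM summed to 519780, against 688260 or more, and its 50 highest genes held 13.5% of the sum, against 20.4% or more. Its transporter level, 75.1 FPKM, lay among the other high libraries. How the clock state and the repeat genes of NAM10 relate was not tested.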

How the results depend on the processing

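The 4 calls outside the repeat became 7 with no filter on low values and 1 without the low-LHY2b libraries. They became 1 without Parent, NAM10, NAM31 and NAM06, a set of low correlation that lies within the low-LHY2b libraries. NAM11, also of that set, was in neither group. The count was 0 with class as a covariate, and 1 with class as a covariate and without the low-LHY2b libraries. It was 1 among elite parents alone, 1 without PI parents and 0 by a rank-sum test. Ranked without the 3 abundant repeat genes, the call without PI parents would be lost. So would the call with class as a covariate and without the low-LHY2b libraries. The rank-sum test could make no call here. Full separation of 7 from 33 libraries still gives too large a p over 29058 genes, since only 3 genes separated fully. With NAM11 counted as high the count was again 4, of which 1 was shared, and Glyma.20G106400, Glyma.09G015800 and Glyma.20G055900 had limma adjusted p of 0.149, 0.36 and 0.215. Leaving out each library in turn gave between 1 (without NAM10 or NAM15) and 15 (without NAM27), with 2 without NAM13, 8 without NAM02 and 7 without NAM03, NAM09 or NAM17. The count was 3 to 5 without any other single library. Glyma.18G022300 was called in all 40 of these fits, each with the 3 abundant repeat genes in the adjustment, so this count overstates its stability. Ranked without those genes, its call would be lost at least where NAM10 (limma adjusted p = 0.0163 as run), NAM15 (0.0133) or NAM12 (0.0296) was left out. Glyma.18G022300 lost the call with class as a covariate, among elite parents (0.42) and by the rank-sum test (0.54), which could call no gene. It kept its direction in all 18 alternatives. Alpha-SNAP (Glyma.18G022500) stayed between 3.08 and 3.26 and WI12 (Glyma.18G022700) between 3.13 and 3.45 over their 17 alternatives. NSF07 stayed lower in all 18 alternatives. The alternative with high from 40 FPKM repeats the main fit, because every high library was at 60.7 FPKM or more. It therefore adds nothing to these counts. Glyma.07G195800 was called at pseudocounts of 0.1 and 0.01 FPKM and with NAM11 counted as high (-1.41, -1.47 and -1.04).

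The sign turned for uncalled genes: SNAP11 (Glyma.11G234500) among elite parents (0.0815), SNAP09 (Glyma.09G279400) by rank-sum (0.0737), VspA (Glyma.07G014500) among elite parents (0.0663), and SNAP14 (Glyma.14G054900) with class as a covariate (-0.022), among elite parents (-0.29) and by rank-sum (-0.16). LHY2b (Glyma.03G261800) turned to 0.29 without the low-LHY2b libraries, and to 0.0578 with class as a covariate as well. It turned to 0.42 without the set of low correlation, 0.32 by rank-sum and 0.78 without NAM10, and ranged between -0.54 and 0.78 over single libraries left out. These causes were not tested. No paired analysis was possible because each accession had 1 library and the columns carry no replicate numbers. The alternatives for the milestone cultivars and the test between collections were not run, with 2 high libraries there. Depth is unknown, which limits statements on genes near 0.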
